A study of Arabidopsis thaliana with 6 samples.

Results

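The pathogenesis-related genes PR1 (AT2G14610), PR2 (AT3G57260) and PR5 (AT1G75040) of Arabidopsis thaliana are described here. They were chosen by locus code and are 3 of the 20297 genes listed in any of the 6 libraries. All 3 are listed for cold, and PR5 is the 1 listed for PEG and for NaCl. The libraries are RNA-seq of leaves taken from plants 2 weeks old, with 1 library per genotype and stress. The genotypes were the lsm1a lsm1b double mutant and Col-0, the laboratory accession. The alleles of the mutant are not given in the labels, and neither is the number of plants behind a library. In cold, lsm1a lsm1b and Col-0 plants grown on soil were held at 4 °C for 24 h. In PEG, lsm1a lsm1b and Col-0 plants grown on plates were moved for 10 h to medium with 55% polyethylene glycol, an osmotic agent used to mimic drought. In NaCl, plants of both genotypes were moved from plates to medium with 150 mM salt for 10 h. Unstressed plants were not analysed here, so every value is from a stressed plant. Growth medium and duration differ between cold and the 2 plate stresses and cannot be told apart from the stress itself.

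PR1, PR2 and PR5 encode small secreted proteins that accumulate in the leaf apoplast and vacuole after infection, and their transcripts are the standard markers of salicylic acid signalling in Arabidopsis leaves. PR1 belongs to the CAP superfamily, PR2 is a beta-1,3-glucanase that cleaves callose-type glucans, and PR5 is a thaumatin-like protein. Salicylic acid made through the isochorismate pathway is perceived by NPR proteins, and NPR1 acts with TGA transcription factors at the PR1 promoter. WRKY factors act at the same promoters through the W-box. LSM1A and LSM1B are functionally redundant subunits of the cytoplasmic LSM1-7 ring, which promotes removal of the mRNA cap before decay.

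The files place PR1 on chromosome 2 at 6241704 to 6242463 (minus strand), PR2 on chromosome 3 at 21188517 to 21189859 (minus strand) and PR5 on chromosome 1 at 28177703 to 28178940 (plus strand), in TAIR10. The 1000 bases before each gene start were searched on both strands for the W-box core TTGAC and for TGACG, the core bound by TGA factors. The letters overlap where TTGACG occurs. The sequences and gene starts are those of RefSeq, TAIR10.1. Of 27443 protein-coding genes, 88.1% had the W-box core and 54.1% had TGACG in such a window. PR1 had 6 matches of the W-box core, a number reached by 3.91% of promoters, and 2 of TGACG, reached by 21.3%. PR2 had 3 and 2 matches, numbers reached by 40.1% and 21.3% of promoters. PR5 had 3 matches of the W-box core, also reached by 40.1%, and 0 of TGACG. For each gene 100 bases with the most matches are shown. Where stretches tied, the middle one of the run of ties nearest the gene start was taken. They are shown because these are the regulators whose transcripts are followed below. They are written 5′ to 3′ on the strand of the gene, with matches on either strand in capitals. The PR1 stretch lies 632 to 533 bases before the start (chr2:6243074-6243173, minus strand), the PR2 stretch 312 to 213 bases before it (chr3:21190180-21190279, minus strand) and the PR5 stretch 213 to 114 bases before it (chr1:28177457-28177556, plus strand).
PR1: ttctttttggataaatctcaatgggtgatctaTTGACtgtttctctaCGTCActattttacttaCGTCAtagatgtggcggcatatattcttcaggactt
PR2: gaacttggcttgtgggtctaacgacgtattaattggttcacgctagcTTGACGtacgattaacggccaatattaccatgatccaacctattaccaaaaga
PR5: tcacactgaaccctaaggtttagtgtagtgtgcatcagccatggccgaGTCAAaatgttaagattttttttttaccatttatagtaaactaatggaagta
The PR1 stretch holds a W-box core followed by 2 TGACG cores on the opposite strand, the PR2 stretch holds both cores in one run of 6 overlapping letters, and the PR5 stretch holds a W-box core on the opposite strand. A match is a match of letters, and binding was not measured.

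Total counts of listed genes ranged from 10289392 to 22639128 per library. LSM1A had 10, 26 and 12 counts in the lsm1a lsm1b libraries of cold, PEG and NaCl, against 206, 246 and 273 in Col-0. LSM1B had 39 and 98 counts in the lsm1a lsm1b libraries of cold and PEG, against 152 and 207 in Col-0. In NaCl it had 439 counts in the library labelled lsm1a lsm1b, against 195 in Col-0, opposite to its direction in cold and PEG. As the alleles are not given, whether this goes against the label cannot be told. All 6 leaf markers were listed in every stress, and 1 of them, the light-harvesting protein gene LHCB1.4, was lower in the lsm1a lsm1b library each time (log2 ratio -1.61 in cold, -1.72 in PEG and -1.15 in NaCl). The 6 root markers summed to 201 CPM (the usual library-scaled count unit) in lsm1a lsm1b and 153 CPM in Col-0 in cold, to 1457 and 1573 CPM in PEG, and to 1509 and 1911 CPM in NaCl, most of it PYK10. Of the defining root markers, MYB36 and IRT1 were listed in PEG and NaCl and not in cold, and SMB was listed nowhere. The endodermis gene CASP1 had 10 counts in lsm1a lsm1b and 0 in Col-0 for chilled leaves, 255 against 505 for PEG and 484 against 205 for NaCl. The 6 seed markers were not listed in cold, and summed to 1061 CPM in lsm1a lsm1b and 465 CPM in Col-0 in PEG, and to 710 and 48.7 CPM in NaCl. Of 5 floral regulators, AP1, AP3, PI and AG were listed in no stress, and SEP3 had 20 counts in lsm1a lsm1b and 8 in Col-0 in cold, and 27 and 13 in NaCl. In NaCl, the first value of each pair is that of the library labelled lsm1a lsm1b. In bulk leaves, more cells that express a gene and more RNA per cell cannot be told apart.

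All 3 PR genes were higher in the lsm1a lsm1b library than in the Col-0 library of chilled leaves, by 8.54-fold to 26.2-fold. PR1 had 950 counts in lsm1a lsm1b, against 39 in Col-0. That is 118 RPKM (CPM per kilobase of transcript, after TMM scaling of the pair) in lsm1a lsm1b and 4.26 RPKM in Col-0, a log2 ratio of 4.71 (95% counting interval 4.33 to 5.29). PR2 had 1613 counts in lsm1a lsm1b, against 192 in Col-0, or 122 and 12.8 RPKM, a log2 ratio of 3.24 (3.03 to 3.47). PR5 had 15761 counts in lsm1a lsm1b, against 2090 in Col-0, or 1515 and 177 RPKM, a log2 ratio of 3.09 (3.03 to 3.16). PR5 was thus the most abundant of the 3 transcripts per kilobase in both libraries, and PR1 had the largest ratio. In what follows, a gene called higher or lower differed by 2-fold or more and reached 5 CPM in one library of its pair (the level limit). By this rule 3 of 3 PR genes were higher in cold, where 8.26% of 14816 genes were, 5.13% were lower and 13.4% passed in either direction. With 1 library per genotype there is no replicate check and no test of these differences, and the intervals cover counting error only.

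The proportions of the 3 transcripts are given for the 1 library of each genotype, with intervals that cover counting error and not the spread between plants. Per kilobase, PR2 stood at 1.03 times PR1 in the lsm1a lsm1b library of chilled leaves (interval 0.953 to 1.12) and at 3.0 times PR1 in the Col-0 library (2.11 to 4.34). PR5 stood at 12.9 times PR1 in lsm1a lsm1b (12.1 to 13.8), against 41.6 times in Col-0 (30.3 to 58.6). The ratio of PR5 to PR2 was 12.4 in lsm1a lsm1b (11.8 to 13.1) and 13.9 in Col-0 (12.0 to 16.2), within counting error of each other. The log2 ratio between genotypes was 1.48 larger for PR1 than for PR2 (0.97 to 1.99). Between PR2 and PR5 it differed by 0.14 (-0.08 to 0.37), an interval that includes 0.

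**Figure D1:**
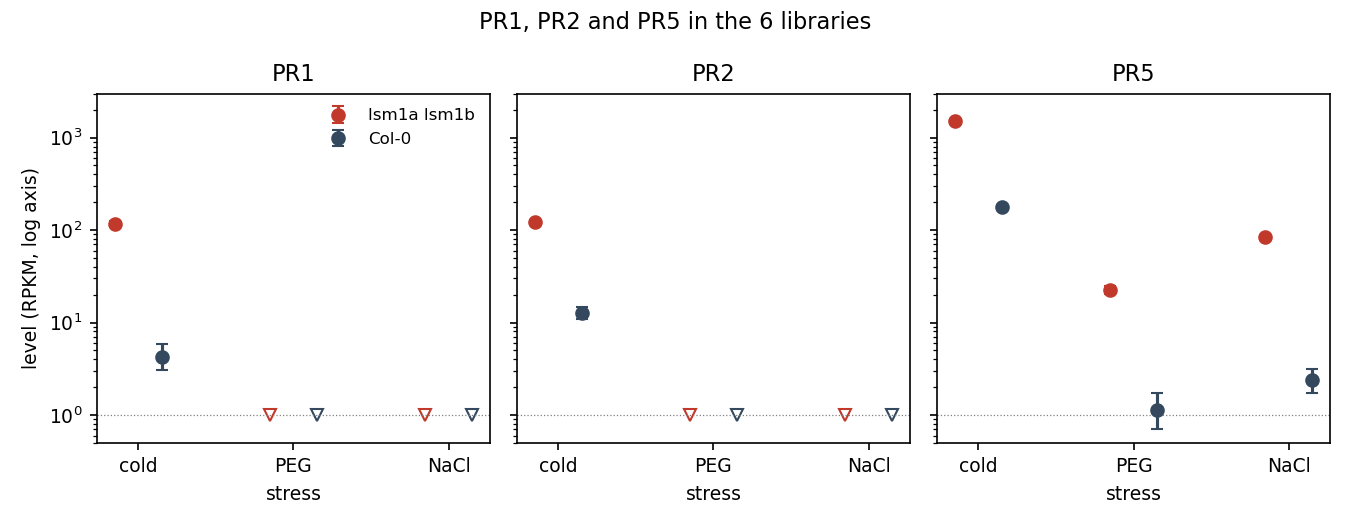
Level of PR1, PR2 and PR5 in each library, in RPKM on a log axis, with lsm1a lsm1b in red and Col-0 in dark blue; bars are 95% counting intervals of 1 library, and open triangles at the dotted line of 1 RPKM mark genes not listed for that stress. All 3 genes lie higher in lsm1a lsm1b in cold, and PR5 does so in PEG and NaCl as well.

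Under PEG and NaCl, PR5 was the 1 PR gene of the 3 that was listed, and it was again higher in the libraries labelled lsm1a lsm1b. In PEG it had 408 counts in lsm1a lsm1b, against 22 in Col-0, or 22.3 and 1.13 RPKM, a log2 ratio of 4.18 (3.68 to 4.99). In NaCl it had 1873 counts in the library labelled lsm1a lsm1b, against 47 in Col-0, or 84.5 and 2.38 RPKM, a log2 ratio of 5.10 (4.73 to 5.60). Within each stress the interval of the lsm1a lsm1b level lay wholly above that of Col-0. By the 2-fold rule, in PEG 3.6% of 15070 genes were higher, 3.65% lower and 7.25% either. In NaCl 5.5% of 15906 genes were higher, 4.46% lower and 9.96% either. With total count scaling in place of TMM, 61.2% of the genes called in PEG were higher, against 49.6% with TMM. PR5 had the 28th largest ratio of those tested in PEG, the 20th in NaCl and the 226th in cold. Beside these values, 1 of 5 listed root markers was higher and 0 lower in each plate stress, IRT1 in PEG (1.87) and CASP1 in NaCl (1.07). Of the seed markers, 4 of 6 were higher and 2 lower in PEG, and 5 of 5 were higher in NaCl. The part of root and seed transcripts in the PR5 values was not tested.

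PR1 and PR2 are not listed for PEG or NaCl. In each stress the listed genes all reached 1 RPKM in one genotype or the other, which is read here as the limit for being listed. For PR1, with a transcript of 760 bases, that limit corresponds to fewer than 13.7 counts in lsm1a lsm1b and 15.6 in Col-0 in PEG, and fewer than 17.2 and 15.3 in NaCl. For PR2, with 1249 bases, the limits are 22.5 counts in lsm1a lsm1b and 25.6 in Col-0 in PEG, and 28.3 and 25.2 in NaCl. A genotype difference of either gene below that level was not detectable in the plate stresses. PR1 and PR2 therefore entered no test across stresses.

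The level of PR5 differed widely over the 6 libraries. From high to low, the lsm1a lsm1b cold library had 1484 CPM, Col-0 cold 174 CPM, the NaCl library labelled lsm1a lsm1b 82.8 CPM, lsm1a lsm1b PEG 21.8 CPM, Col-0 NaCl 2.33 CPM and Col-0 PEG 1.11 CPM. Neighbours in this order differed beyond their counting intervals, the nearest being Col-0 NaCl (1.71 to 3.10 CPM) and Col-0 PEG (0.695 to 1.68 CPM). Both plate levels of Col-0 were far under the Col-0 level in cold, and the lsm1a lsm1b plate levels lay between. In the libraries labelled lsm1a lsm1b the cold level was 17.9 times that in NaCl and 68.0 times that in PEG, against 74.6 and 157 times in Col-0. These folds join soil-grown and plate-grown plants and compare 1 library with 1 library. The CPM carry TMM scaling within each stress pair only, so the stresses were not put on one TMM scale.

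Taking the 3 stress pairs as replicates asks whether PR5 differed between genotypes whatever the stress. PR5 was higher in the libraries labelled lsm1a lsm1b in 3 of 3 stresses, by 4.11 ± 0.45 on the log2 scale (SE taken from the F statistic), but it did not pass edgeR's quasi-likelihood test with an adjusted p of 0.0693 and an unadjusted p of 0.000221. In that test 36 of 16927 genes (0.213%) passed, 0.112% higher and 0.1% lower, and PR5 stood 54th by p. The same fit without the cold pair gave 4.80 with an adjusted p of 0.00031. It gave 4.07 and an adjusted p of 0.321 without the PEG pair, and 3.60 and 0.286 without the NaCl pair. In the NaCl pair, LSM1B was higher in the library labelled lsm1a lsm1b than in Col-0. DESeq2 gave an adjusted p of 7.01e-22 and limma-voom 0.0407, and over all alternatives the adjusted p ranged from 7.01e-22 to 1. The size was at least 3.17 in every fit, and the call depended on the tool and on the cold pair.

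The ratio of PR5 between genotypes was smaller in cold than in the plate stresses, beyond counting error, and edgeR's test across libraries did not call that difference. The log2 ratio was 1.08 larger in PEG than in cold (counting interval 0.46 to 1.70), 2.0 larger in NaCl than in cold (1.58 to 2.42) and 0.92 larger in NaCl than in PEG (0.17 to 1.67). In edgeR's test of the genotype difference in cold against that in PEG and NaCl together, PR5 had -1.69 ± 0.41 (SE) with an adjusted p of 0.0923, and 0.049 to 0.104 over the alternatives. The 372 genes that passed are 2.2% of those tested, 1.54% with the larger ratio in cold and 0.662% with the smaller. That fit leaves 1 residual degree of freedom, and without the NaCl pair it leaves none. Its own spread comes from how the genotype effect differs between PEG and NaCl, before sharing across genes.

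PR5 was lower in PEG than in NaCl in both genotypes, at 21.8 against 82.8 CPM in the libraries labelled lsm1a lsm1b and at 1.11 against 2.33 CPM in Col-0, with TMM scaling within each pair only. The difference was -1.58 ± 0.52 on the log2 scale (PEG minus NaCl, SE) with an adjusted p of 0.111 in edgeR's 6-library fit, where 8.54% of genes passed, 3.21% higher and 5.33% lower in PEG. With the 4 plate libraries alone it was -1.63 with an adjusted p of 0.00525, in an edgeR fit where 4861 of 16931 genes passed. DESeq2 on 6 libraries gave 0.0143, where 3054 of 16927 genes passed. Of 71 genes of the related lists, 3 passed in edgeR's 6-library fit, where 8.54% of all genes did. The thaumatin-like genes AT4G38660 (-2.19) and ATLP-1 (-2.33) and the regulator gene WRKY18 (-1.33) were lower in PEG than in NaCl. Their adjusted p in that fit were 0.0297, 0.0369 and 0.0328. Of 6 leaf markers 4 were lower in PEG as well, and their sum was 4295 CPM in lsm1a lsm1b and 4461 CPM in Col-0 in PEG, and 14490 and 13790 CPM in NaCl.

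Relatives of the 3 genes were followed as well, because tandem copies sit beside PR2 and PR5. No 50-base window of PR1 (853 windows), PR2 (1522) or PR5 (1304) occurs a second time in the genome, and 1 of 1324 windows of 30 bases of PR5 does. The sources used here do not state read length, and sharing of reads between family members was not tested. In cold, both thaumatin-like neighbours of PR5 were higher in lsm1a lsm1b. TLP-3 had 556 counts in lsm1a lsm1b, against 162 in Col-0 (log2 ratio 1.95, 1.71 to 2.22), and AT1G75050 had 218 against 45 (2.40, 1.99 to 2.95). In PEG, TLP-3 had 232 counts in lsm1a lsm1b, against 204 in Col-0 (0.27, -0.01 to 0.55), and in NaCl 277 against 173 (0.51, 0.24 to 0.80). AT1G75050 is not listed for PEG and had 31 counts in the NaCl library labelled lsm1a lsm1b, against 6 in Col-0, under the level limit. Within 20 kb of PR5, 2 of 7 genes reaching the level limit were called higher in cold, and these are the 2 thaumatin-like genes. In PEG 0 of 6 and in NaCl 0 of 9 were, and 0 were lower in any stress. Over all genes, 8.26% were higher in cold, 3.6% in PEG and 5.5% in NaCl. The shares lower were 5.13%, 3.65% and 4.46%.

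**Figure D2:**
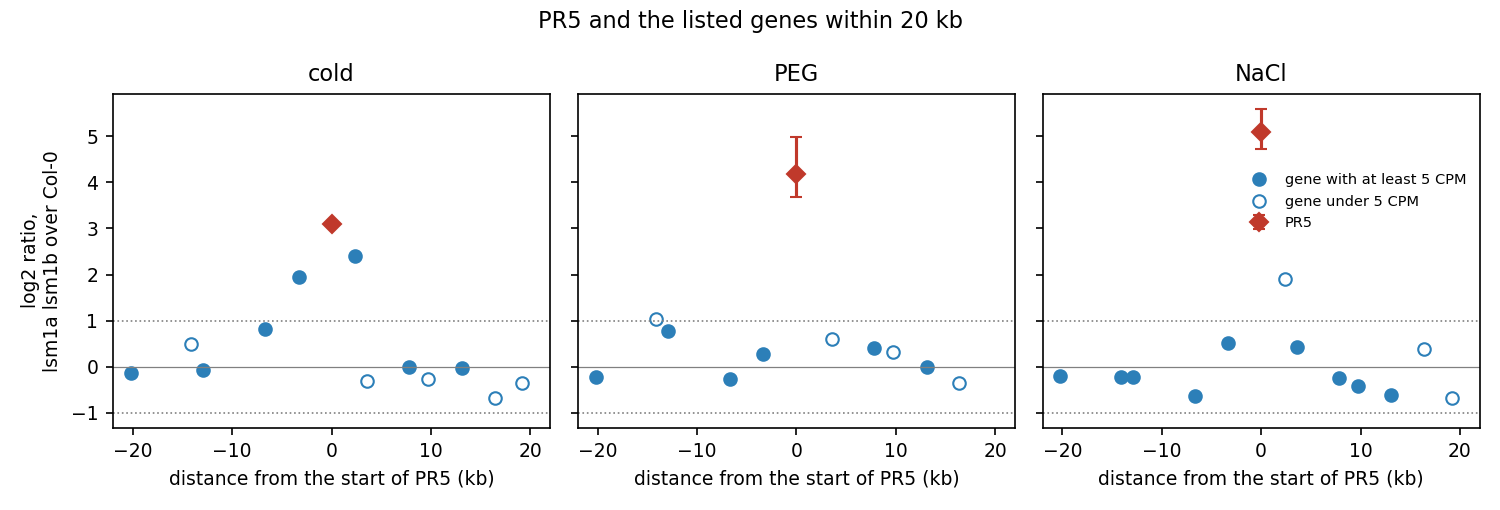
Log2 ratio of lsm1a lsm1b over Col-0 for PR5 (red diamond, 95% counting interval) and the listed genes within 20 kb, by distance from the start of PR5 in kb; filled points had at least 5 CPM in the higher library and open points less. In cold the adjacent genes TLP-3 (1.95) and AT1G75050 (2.40) stand with PR5, and in PEG and NaCl no other gene past the level limit leaves the 2-fold band (dotted).

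The wider families held fewer and smaller differences. Of the 20 thaumatin-like genes other than PR5, 10 passed the level limit in cold, of which 5 were higher and 0 lower, with a median log2 ratio of 1.09, against -0.02 over all genes. Of all genes in cold, 8.26% were higher and 5.13% lower. The other 3 higher genes were AT4G36010 (1.36), AT1G73620 (1.27) and ATLP-1 (1.21). In PEG 1 of 10 was higher, AT4G36010 (1.11), and 1 lower, AT4G38660 (-1.10), with a family median of 0.22, where 3.6% of all genes were higher and 3.65% lower. In NaCl 0 of 13 passed the rule in either direction, where 9.96% of all genes did, the median being -0.05, while PR5 had 5.10. Beside PR2, the glucanase gene BG3 was higher in cold, with 88 counts in lsm1a lsm1b, against 22 in Col-0 (2.08, 1.49 to 2.93), and was not listed in the plate stresses. BG1, the neighbour on the other side, was listed nowhere. Of 21 CAP-family relatives of PR1, PRB1 passed the level limit in cold, with 55 counts in lsm1a lsm1b, against 21 in Col-0 (1.48, 0.82 to 2.37). On plates 2 relatives passed the level limit in each stress, and 1 of them, AT1G50060, was higher. It had 106 counts in lsm1a lsm1b, against 42 in Col-0, in PEG (1.38, 0.89 to 1.97). In NaCl it had 329 against 49 (2.54, 2.15 to 3.05). Over all genes, 3.6% were higher in PEG and 5.5% in NaCl. Under the level limit, relatives went both ways. AT4G31470 (33 and 93 counts, -1.36) and AT4G07820 (7 and 22, -1.34) had fewer counts in lsm1a lsm1b in PEG. In NaCl AT5G66590 (33 and 82, -1.42) did so, and AT2G19970 (23 and 4, 1.93) had more.

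Upstream of the PR genes, the transcripts for salicylic acid synthesis were higher in the chilled mutant. Of 6 genes 5 were called higher and 0 lower, and the median log2 ratio was 3.46. For this and the next 2 lists, the shares over all genes in cold are 8.26% higher and 5.13% lower. ICS1, the isochorismate synthase, had 847 counts in lsm1a lsm1b, against 104 in Col-0 (3.18, 2.91 to 3.51). The transcription factor genes SARD1 (822 and 62 counts, 3.86, 3.54 to 4.31) and CBP60G (656 and 54, 3.73, 3.38 to 4.21), which drive ICS1, were higher too, as was PBS3 (4.67), which conjugates isochorismate. The last step gene EPS1 had 0.65. Of 4 measured turnover genes, the salicylic acid hydroxylase genes DLO1 (163 and 2 counts, 5.50, 4.65 to 9.59) and DMR6 (2298 and 204, 3.66) and the glycosyltransferase gene UGT76B1 (247 and 12, 4.32) were higher, and UGT74F2, which glucosylates salicylic acid, was lower (696 and 1710 counts, -1.11, -1.25 to -0.99). In the EDS1 and pipecolate module 6 of 7 genes were higher and 1, SARD4 (-1.14), was lower. FMO1 had 54 counts in lsm1a lsm1b and 0 in Col-0, and ALD1 (63 and 3, 3.84), EDS1 (856 and 132, 2.86) and NDR1 (243 and 40, 2.72) were the next by size.

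Among the regulators that act at PR promoters, WRKY genes, NIMIN1, NIMIN2 and GRX480 were higher in the chilled mutant. Of 14 measured NPR and TGA genes and their partners, 4 were higher and 1 lower, with a median of 0.33. GRX480, a glutaredoxin that binds TGA factors, had 230 counts in lsm1a lsm1b, against 4 in Col-0 (5.42, 4.65 to 7.91). NIMIN1 (61 and 2 counts, 4.11, 3.20 to 8.19) and NIMIN2 (405 and 25, 4.09, 3.62 to 4.84), whose proteins bind NPR1, were higher, as was the receptor gene NPR3 (1.84). NIMIN3 went the other way without passing the 2-fold rule, with 33 counts in lsm1a lsm1b, against 68 in Col-0 (-0.83, -1.51 to -0.24). NPR1 itself had 286 counts in lsm1a lsm1b, against 324 in Col-0 (0.0, -0.23 to 0.23). Among TGA genes, TGA7 was lower (27 and 133 counts, -2.05, -2.77 to -1.51). All 8 measured WRKY genes of the list were higher in cold, with a median of 3.01. WRKY46 had 285 counts in lsm1a lsm1b and 8 in Col-0 (5.01), WRKY38 had 108 and 3 (4.60), WRKY40 had 454 and 30 (4.01) and WRKY53 had 1444 and 140 (3.53). These counts stand beside 8.26% of all genes higher and 5.13% lower in cold. Of 16 secretory pathway genes, which serve the export of PR proteins, 6 were higher and 0 lower, led by the chaperone gene BIP3 (214 and 10 counts, 4.34), the calreticulin gene CRT3 (2.52), the regulator TBF1 (2.22) and SHD (1.38).

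The upstream genes were also followed in PEG and NaCl. In PEG 0 of 4 synthesis genes, 0 of 4 genes of the EDS1 module, 0 of 11 NPR and TGA genes and 0 of 15 secretory genes were at least 2-fold higher, with medians of 0.64, 0.44, -0.01 and 0.22, where 3.6% of all genes were higher. Called higher were 2 of 4 WRKY genes, WRKY46 (181 and 22 counts, 3.01, 2.48 to 3.84) and WRKY18 (354 and 129, 1.53, 1.25 to 1.84), and UGT74F2 was lower (-1.11). In NaCl, 2 of 5 synthesis genes, 1 of 5 genes of the EDS1 module and 1 of 11 NPR and TGA genes were lower, 1 of those 11 was higher, and of 6 WRKY genes 2 were higher and 2 lower. None of 3 turnover and 15 secretory genes was called, and over all genes 5.5% were higher and 4.46% lower. CBP60G (115 counts in the library labelled lsm1a lsm1b and 286 in Col-0, -1.46, -1.80 to -1.16), SARD1 (64 and 123, -1.08), NDR1 (-1.45) and NPR3 (-1.43) were lower. WRKY70 (69 and 558 counts, -3.14, -3.56 to -2.82) and WRKY40 (-1.82) were lower, and WRKY60 (715 and 123, 2.36, 2.10 to 2.66), WRKY18 (1.12) and TGA1 (1.08) were higher. WRKY18 was the 1 gene of these lists besides PR5 called higher in all 3 stresses.

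**Figure D3:**
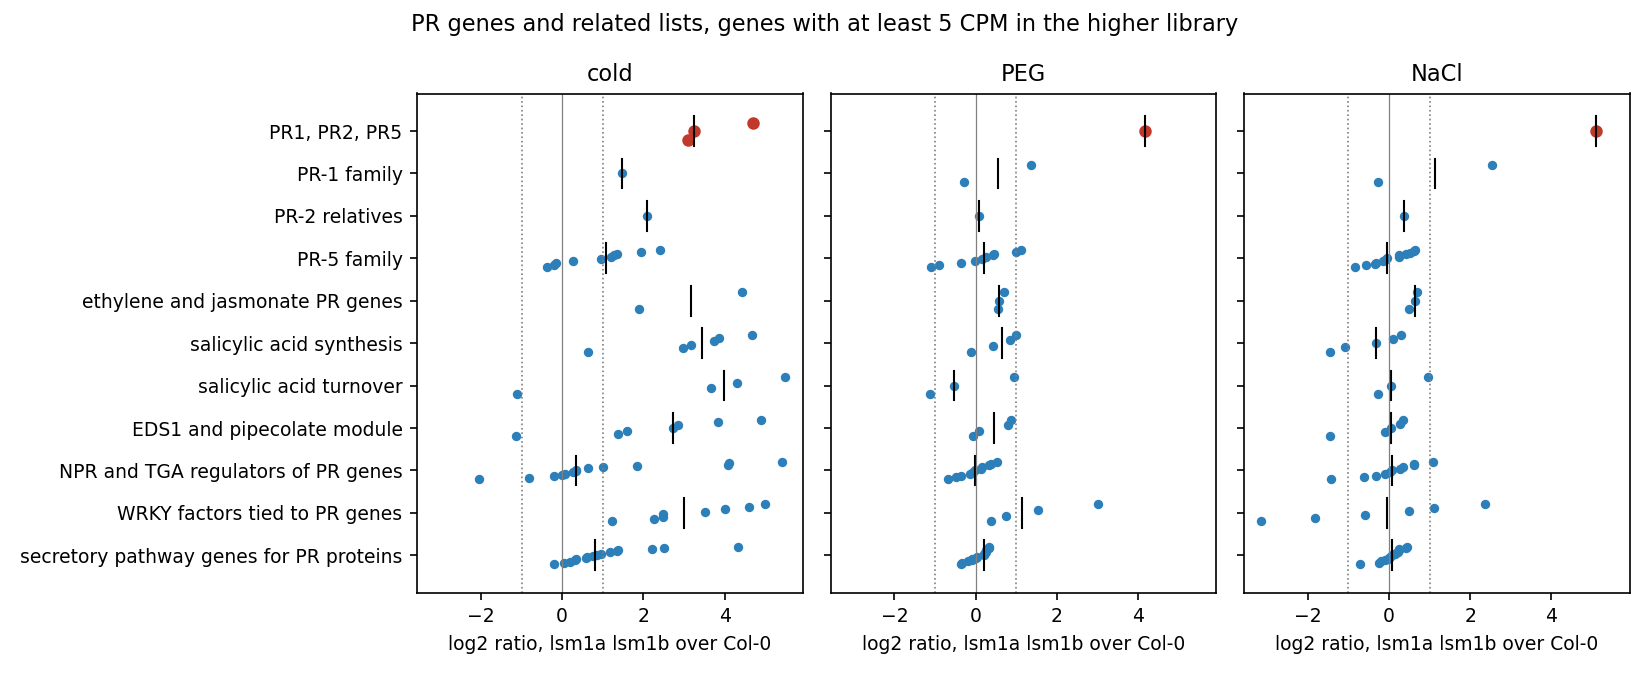
Log2 ratio of lsm1a lsm1b over Col-0 for PR1, PR2 and PR5 (red) and the genes of 10 related lists (blue) in cold, PEG and NaCl, for genes that reached the level limit of 5 CPM; black bars are medians and dotted lines mark 2-fold. In cold most lists lie right of 0, and in PEG and NaCl PR5, at 4.18 and 5.10, is the point farthest to the right.

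The difference between cold and the plate stresses was tested for these genes in the same interaction fit, and its direction for the genes called was opposite to the estimate for PR5. The genes with a larger log2 ratio in cold included ICS1 (2.75 ± 0.42, SE, adjusted p 0.0249) and EDS5 (3.23 ± 0.36) of 4 synthesis genes, and DLO1 (6.17 ± 0.74, adjusted p 0.0147), UGT76B1 (4.78 ± 0.46) and DMR6 (2.71 ± 0.30) of 4 turnover genes. They also included GRX480 (5.15 ± 0.80, adjusted p 0.0253), NIMIN2 (3.97 ± 0.48) and NPR3 (2.92 ± 0.40) of 13 NPR and TGA genes, and WRKY40 (4.96 ± 0.86) and WRKY53 (3.60 ± 0.53) of 6 WRKY genes. EDS1 (2.35) was called in its module of 5. CRT3 (2.46), TBF1 (2.03) and BZIP60 (1.89) were called among 15 secretory genes. None of these lists had a gene called in the other direction. Over all genes in this fit, 1.54% had the larger ratio in cold and 0.662% the smaller. The lists were chosen with earlier results of these data known, so their counts are not a test of the lists. In the genotype test across the 3 stresses, 0 of 71 related genes passed edgeR's threshold, 14 had an unadjusted p under 0.05, and DESeq2 called 7 and limma-voom 0. Over all 16927 genes, 2651 had an unadjusted p under 0.05 in edgeR, and DESeq2 called 839 and limma-voom 71. LSM1A (-3.94 ± 0.36, SE) had an adjusted p of 0.0465.

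**Figure D4:**
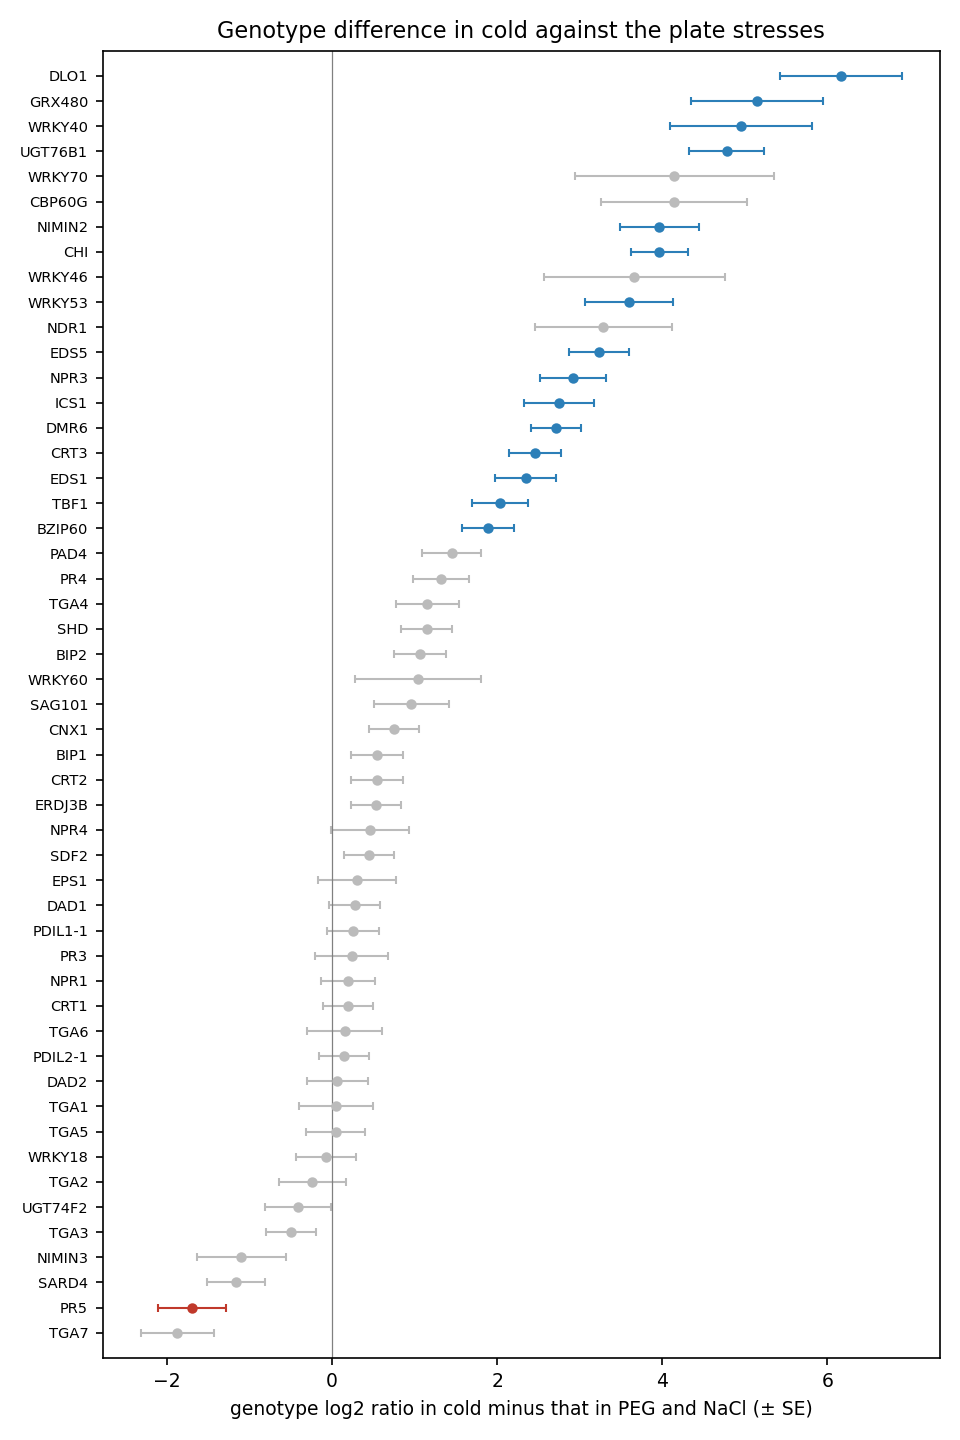
Genotype log2 ratio in cold minus that in PEG and NaCl, with its SE, for PR5 (red) and the genes of 7 related lists listed in all 3 stresses; blue points had an adjusted p under 0.05 and grey points did not. The called genes lie between 1.89 and 6.17, and PR5 lies at -1.69 with an adjusted p of 0.0923.

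The salicylic acid genes are not the only PR-type genes measured. CHI, a chitinase gene, had 931 counts in lsm1a lsm1b, against 47 in Col-0, in cold (4.43, 4.07 to 4.94), and PR4, a chitin-binding protein gene of the ethylene and jasmonate branch, had 160 against 47 (1.90, 1.47 to 2.45). In PEG and NaCl neither they nor PR3, a basic chitinase gene, passed the 2-fold rule, with log2 ratios between 0.49 and 0.71. In cold, CHI and PR4 were the 2 of 8 genes of the ethylene and jasmonate list past the level limit. Under it, the defensin gene PDF1.2 had 1 count in lsm1a lsm1b and 7 in Col-0. ERF1 had 20 and 1, ORA59 11 and 5, and PR3 25 and 15, and PDF1.2b and PDF1.2c were not listed. In the interaction fit CHI was called (3.97 ± 0.34, SE, adjusted p 0.0118). Leaf senescence is another setting in which PR transcripts are known to accumulate. Of 6 measured senescence markers in cold, WRKY6 (2.57), SAG21 (2.33) and SAG13 (1.26) were higher, SEN1 (-2.52) and NAP (-1.51) were lower, and the median was 0.42. In PEG 0 of 5 were called, and in NaCl 2 of 5 were higher and 0 lower, ORE1 (429 counts in the library labelled lsm1a lsm1b and 153 in Col-0, 1.31) and SEN1 (175 and 77, 1.0). Over all genes, 8.26% were higher and 5.13% lower in cold, 7.25% passed in PEG, and 5.5% were higher and 4.46% lower in NaCl. SAG12, the marker of late senescence, was listed in no stress. Whether senescence has a part in the PR levels was not tested.

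The genes most like PR5 in their genotype ratios were found among the other 13220 genes that were listed and reached the level limit in all 3 stresses. Likeness was the root mean square difference of the 3 log2 ratios. AT1G12080, annotated as a vacuolar calcium-binding protein-like protein, was nearest at 0.62, with ratios of 2.37 in cold, 3.71 in PEG and 4.45 in NaCl. AT1G20070, an uncharacterized protein gene, followed at 0.68 (4.20, 3.80 and 5.24). AT5G55410, of the lipid-transfer protein and 2S albumin superfamily, stood at 0.79 (2.39, 5.33 and 4.89), AT4G28140, annotated as an integrase-type DNA-binding protein, at 0.79 (3.32, 3.94 and 3.77) and AT4G35720 at 0.98 (4.47, 4.69 and 5.96). None of the 5 belongs to the lists above. Of the 13221 genes measured this way, PR5 included, 93 were at least 2-fold and 6 at least 8-fold higher in all 3 stresses, and PR5 is 1 of the 6. PR1 and PR2, listed for 1 stress each, were not compared in this way.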

How the data were processed

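The deposited values are raw read counts per gene from 6 leaf libraries, 1 file each, taken unchanged. TopHat2, DESeq2 and TAIR10 are named, per the submitters' processing notes, without versions, and the counting tool, strand setting and read length are not given in the sources used here. Members and lists were chosen with earlier results of these data known. The NaCl files name the PR5 row by a wrong transcript, as in 270 rows there, so the locus code was used. RefSeq (TAIR10.1) gave names and promoter sequences, and all 20058 nuclear loci of the files found in it overlapped their gene there.

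The 2 libraries of each stress were put on one scale with TMM factors from edgeR 4.0.16 in R 4.3.3. The log2 ratio used a prior count of 2, and intervals are exact binomial (Clopper-Pearson, 95%) or, for levels, exact Poisson; intervals of differences of ratios use the Poisson variance of the counts. All cover counting error only. Across stresses, edgeR's quasi-likelihood test (filterByExpr, TMM, two-sided, Benjamini-Hochberg over all genes, adjusted p under 0.05) was fitted to the 16962 genes listed in all 3 stresses, with stress as a block, and with a genotype-by-cold term for the difference between cold and plates. Where nothing says that libraries came from separate cultures, p-values measure the spread between these samples. With 1 library per genotype and stress, that spread cannot separate replicate error from a genotype effect that differs between stresses. The scripts were tested on simulated counts. Alternatives were DESeq2 1.42.0, limma-voom (limma 3.58.1), other scalings, priors, limits and filters, no block, and each pair left out. The text names PR1, PR2, PR5, LSM1A and LSM1B, up to 6 genes per family list and up to 4 per other list and stress past the 2-fold rule by size, list genes past the threshold across stresses, and the 5 genes nearest to a member. Other genes named were chosen after their values were seen.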

Additional observations from a re-analysis of the deposited data

Results flagged for a closer look

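The genotype difference in cold departed from that in the plate stresses by the interaction test (edgeR, adjusted p under 0.05) in 18 of 71 genes of the related lists, where 2.2% of all 16927 genes did. The lists were chosen with earlier results of these data known, so the 2 shares are not a test of the lists. The log2 ratio in cold minus that in PEG and NaCl was 6.17 for DLO1, 5.15 for GRX480, 4.96 for WRKY40, 4.78 for UGT76B1 and 3.97 for both NIMIN2 and CHI. It was 3.60 for WRKY53, 3.23 for EDS5, 2.92 for NPR3, 2.75 for ICS1, 2.71 for DMR6, 2.58 for SAG21, 2.46 for CRT3 and 2.35 for EDS1. It was 2.03 for TBF1, 2.03 for WRKY6, 1.89 for BZIP60 and -3.40 for SEN1. In this fit stress, growth medium and duration change together and cannot be told apart.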

How the results depend on the processing

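The log2 ratios of PR1, PR2 and PR5 within a stress kept their sign, and the numbers of PR genes higher (3 in cold, 1 in PEG, 1 in NaCl) stayed the same, under the scalings, priors and limits tried where each applies. PR1 in cold ranged from 4.45 to 4.80, PR2 from 3.18 to 3.33, and PR5 from 3.09 to 3.19 in cold, 3.78 to 4.27 in PEG and 4.90 to 5.14 in NaCl. Only total count scaling, with 3.19 for PR5 in cold, left the counting interval. In the test across stresses, the PR5 difference passed with DESeq2 (4.15), limma-voom (3.91) and without the cold pair (4.80), and not in the edgeR fit of all pairs. The number of genes called there was 36, against 839 with DESeq2, 71 with limma-voom, 5 without the stress block, 826 without the cold pair, and 0 without the PEG pair and 0 without the NaCl pair, both by edgeR, with 1547 and 1430 genes at an unadjusted p under 0.05. For PEG against NaCl, PR5 passed with DESeq2 (-1.56) and with the 4 plate libraries alone (-1.63), and genes called were 1446, against 3054 with DESeq2, 2368 with limma-voom and 4861 with the 4 plate libraries. For cold against the plate stresses, PR5 passed with DESeq2 (-1.68), and genes called were 372, against 585 with total count scaling. The causes were not tested. With genes not listed entered as 0 counts, 1 of the 3 PR genes, PR5, passed the filter on low counts. Of the values for related lists under other settings, 678 stayed within their limits and 70 moved. The main test across stresses pairs the genotypes within each stress through its stress block, and the labels give no replicate numbers to pair by. PR1 and PR2 are limited in the plate stresses by the level at which the files list a gene, and PR5 in Col-0 there by its depth, at 22 and 47 counts.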

Other observations

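PR3, a basic chitinase gene of the ethylene and jasmonate branch, had 70.1 CPM in lsm1a lsm1b and 42.8 CPM in Col-0 in PEG, 65.2 and 41.6 CPM in NaCl, and 2.35 and 1.25 CPM in cold. The osmotin gene OSM34, a thaumatin-like relative of PR5, had 49.1 CPM in lsm1a lsm1b and 24.8 CPM in Col-0 in PEG, 37.7 and 24.8 CPM in NaCl, and 1.98 and 0.332 CPM in cold. The root marker PYK10 had 1394 CPM in lsm1a lsm1b and 1497 CPM in Col-0 in PEG, 1424 and 1852 CPM in NaCl, and 132 and 100.2 CPM in cold. The part of root tissue in these levels was not tested.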
